A study of Mus musculus with 4 samples.

Results

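Serum amyloid A (SAA) genes and the formyl peptide receptor genes *Fpr1* and *Fpr2* were examined in alveolar macrophages (AM) that express or lack TREM-2. The genes were taken by name, as probe sets whose annotation gives exactly 1 symbol, the brightest on average over the 4 arrays where a gene has several. Of the 6 genes, *Saa1*, *Saa2*, *Saa3* and *Saa4* were found, each with 1 probe set, among 19946 genes in all. No row could be named for *Fpr1* or *Fpr2*, which were not analysed here. Only *Fpr-rs3*, *Fpr-rs4*, *Fpr-rs6* and *Fpr-rs7*, their relatives in the same family, could be described. The values of these relatives do not report on *Fpr1* or *Fpr2* themselves. The group was chosen by results of these same arrays, namely the difference between genotypes, in which *Saa3* had the largest increase of all genes. The difference of each SAA gene between genotypes is therefore a description, without a test.

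AM were recovered by bronchoalveolar lavage from untreated mice of 8 to 10 weeks, either wild type (WT) on the C57/Blk6 strain or TREM2-/-, a line that lacks *Trem2* in all its cells and was backcrossed 10 times to C57/Blk6. RNA was hybridized to 4 Affymetrix mouse gene arrays, 2 per genotype, each with RNA of pooled mice. Neither the size of a pool nor the independence of the pools within a genotype is stated, so the p-values rest on variation among the 4 arrays that may be technical only. Values are log2 signals normalized by the robust multi-array average (RMA), and a difference of 1 on this scale is 1 doubling of signal.

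The labels matched the targeted gene, since *Trem2* was lower on both TREM2-/- arrays, at 7.64 and 7.45 against 9.58 and 9.74 on the WT arrays (log2 difference −2.11, standard error 0.10, adjusted p = 0.0009 from limma). Pearson's r over all rows was 0.994 between the WT arrays, 0.995 between the TREM2-/- arrays and 0.992 to 0.993 between genotypes. The lower quartile of the 4 arrays lay at 4.39 to 4.40, their median at 5.84 to 5.86 and their upper quartile at 8.13 to 8.17. A value below the lower quartile is called dim here, since a difference there may not be measurable.

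SAA proteins are small apolipoproteins of the acute-phase response that circulate on high-density lipoprotein (HDL). In mice, *Saa1* and *Saa2* are made mainly by the liver during inflammation, *Saa4* is expressed constitutively, and *Saa3* is the inflammatory form made by macrophages, epithelium and adipose tissue. SAA attracts phagocytes through FPR2, a G protein-coupled receptor related to FPR1, which senses formylated peptides of bacteria.

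The 4 genes lie next to each other on chromosome 7, in the order *Saa3*, *Saa4*, *Saa1* and *Saa2* after *Saal1*, whereas *Trem2* and the formyl peptide receptor genes lie on chromosome 17. Their upstream sequences are shown because only 1 of the 4 adjacent genes had a large difference, and because they show how alike the paralogs are. Each is the 250 bases before the annotated start, 5′ to 3′ on the strand of the gene, from RefSeq on GRCm38.p6. Capitals mark matches to 3 motifs, the C/EBP motif TTGCNNAA and an NF-kB motif, GG and TTTCC with any 3 bases between, on either strand and the TATA motif TATANA on the strand of the gene, where N is any base. C/EBP proteins and NF-kB are the factors best known for inducing SAA genes.
*Saa3*, chr7:46715677-46715926, minus strand: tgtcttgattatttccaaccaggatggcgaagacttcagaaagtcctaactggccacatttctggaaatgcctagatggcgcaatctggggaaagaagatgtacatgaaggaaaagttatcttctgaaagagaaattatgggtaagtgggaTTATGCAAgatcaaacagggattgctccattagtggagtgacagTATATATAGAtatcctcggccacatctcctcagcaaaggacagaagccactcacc
*Saa4*, chr7:46732604-46732853, minus strand: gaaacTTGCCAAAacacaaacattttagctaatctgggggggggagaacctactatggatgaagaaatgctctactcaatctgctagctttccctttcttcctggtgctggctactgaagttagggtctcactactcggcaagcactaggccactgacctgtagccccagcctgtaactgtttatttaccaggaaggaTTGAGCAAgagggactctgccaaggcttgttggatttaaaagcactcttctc
*Saa1*, chr7:46742981-46743230, minus strand: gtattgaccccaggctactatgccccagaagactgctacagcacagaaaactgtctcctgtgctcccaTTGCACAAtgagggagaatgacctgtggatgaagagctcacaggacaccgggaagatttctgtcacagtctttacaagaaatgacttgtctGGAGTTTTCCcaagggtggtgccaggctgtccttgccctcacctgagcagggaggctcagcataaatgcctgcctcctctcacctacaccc
*Saa2*, chr7:46751583-46751832, plus strand: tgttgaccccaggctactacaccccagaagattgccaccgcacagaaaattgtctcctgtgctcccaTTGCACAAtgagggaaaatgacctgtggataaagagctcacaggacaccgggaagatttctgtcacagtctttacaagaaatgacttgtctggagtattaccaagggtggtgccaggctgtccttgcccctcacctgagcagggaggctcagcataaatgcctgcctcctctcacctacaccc

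The windows of *Saa1* and *Saa2* were 94.8% identical over 251 aligned positions. That of *Saa3* was 52.2% identical to *Saa1* over 295 positions, 52.4% to *Saa2* over 290 and 47.2% to *Saa4* over 301. The identity that unrelated windows reach in this alignment was not computed. In *Saa3* the C/EBP motif lay 99 to 92 bases before the start, and 3 overlapping TATA matches spanned positions 55 to 46 before it. A TATA match was found in none of the other 3 windows and in 16.4% of 32851 windows of this length. *Saa1* and *Saa2* each held 1 C/EBP match and *Saa4* held 2, while 9.56% of all windows held one. The NF-kB motif searched was matched once, in *Saa1*, from 91 to 82 bases before the start, against 4.63% of all windows. Other forms of NF-kB site were not searched, so a window without this match may still hold one. The STAT motif TTCNNNGAA was also searched on both strands and matched none of the 4 windows, against 7.02% of all windows. These matches describe letters in a window of sequence and do not show that a factor binds there.

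**Figure D1:**
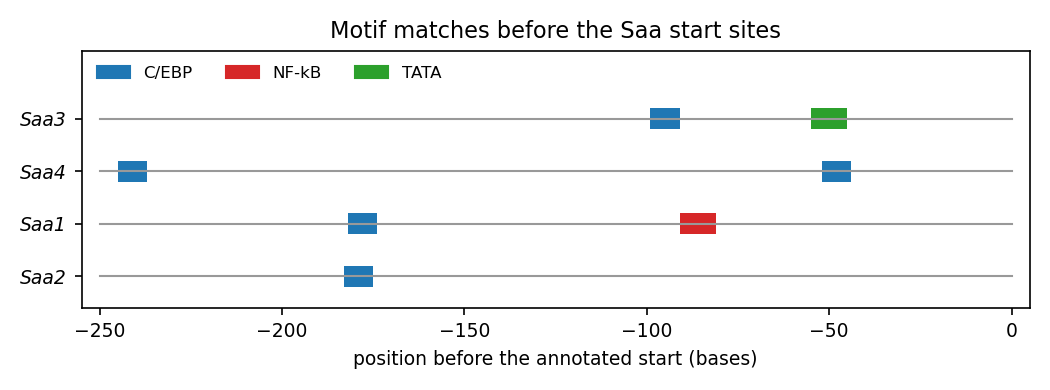
Positions of motif matches in the 250 bases before the annotated start of each *Saa* gene; the x axis is the distance from the start in bases and the colour gives the motif. Overlapping TATA matches appear only in *Saa3*, from 55 to 46 bases before the start, and each gene has at least 1 C/EBP match.

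*Saa3* was far higher in TREM2-/- AM than in WT AM. Its log2 value was 4.88 on WT array 1 and 5.22 on WT array 2, and 9.77 and 9.67 on the TREM2-/- arrays (probe set 10563597). Both WT values lay between the lower quartile and the median of their arrays, and both TREM2-/- values lay above the upper quartile. The log2 difference was 4.67 with a standard error of 0.12, which is a 25.5-fold higher signal in TREM2-/- AM. The WT arrays differed from each other by more than the TREM2-/- arrays did, with standard deviations of 0.24 and 0.08 (n = 2 arrays each). With each array left out in turn the difference ran from 4.50 to 4.84. In bulk RNA of lavage cells, more cells with a transcript and more of it per cell cannot be told apart.

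*Saa1*, *Saa2* and *Saa4*, the hepatic and constitutive forms, were dim on all 4 arrays. *Saa1* was at 3.43 and 3.58 in WT AM and at 3.16 and 3.18 in TREM2-/- AM, a log2 difference of −0.33 with a standard error of 0.08. *Saa2* was at 3.73 and 3.29 in WT AM and at 3.67 and 3.55 in TREM2-/- AM, a difference of 0.10 with a standard error of 0.15. *Saa4* was at 4.39 and 4.09 in WT AM and at 4.19 and 4.40 in TREM2-/- AM, a difference of 0.05 with a standard error of 0.13. The arrays of the genotypes overlapped for *Saa2* and *Saa4*, and the sign of both differences turned when single arrays were left out. They did not overlap for *Saa3*, which was higher in TREM2-/- AM, and *Saa1*, which was lower, a property that 42.8% of all genes shared. *Saa1* and *Saa2* are near-identical paralogs, so their probe sets may share signal, and the probe sequences were not analysed here.

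**Figure D2:**
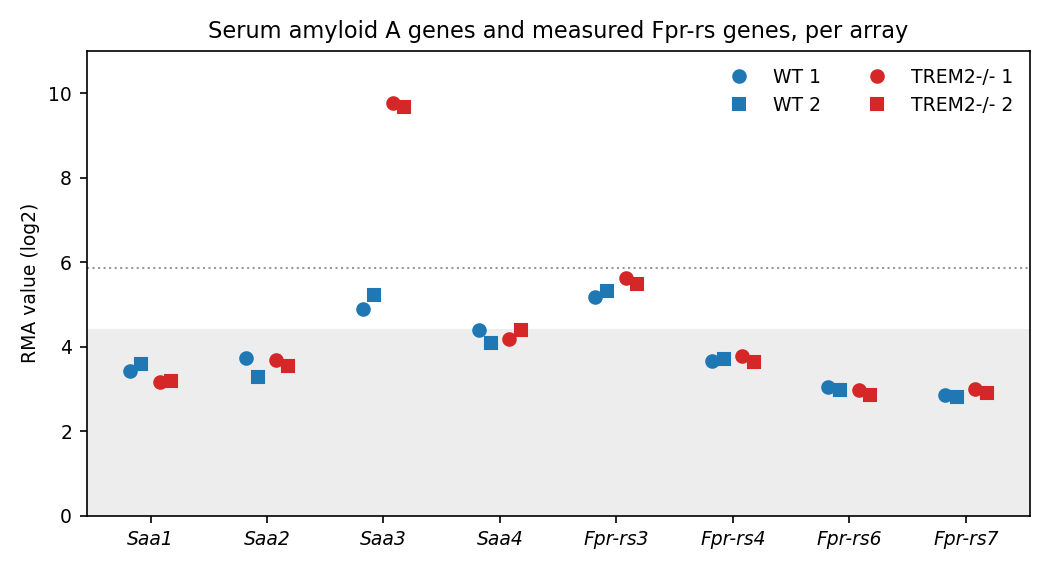
RMA log2 value of each SAA gene and each measured *Fpr-rs* gene on the 4 arrays, blue for WT and red for TREM2-/-; the grey band ends at the mean lower quartile of the arrays and the dotted line is their mean median. *Saa3* moves from 4.88 and 5.22 to 9.77 and 9.67, and the other SAA genes stay in or at the edge of the band.

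The genes on either side of the SAA cluster did not pass the test between genotypes. *Saal1*, whose name derives from its likeness to SAA, was at 7.72 and 7.57 in WT AM and at 7.59 and 7.42 in TREM2-/- AM, and its arrays overlapped (log2 difference −0.14, adjusted p = 0.63 from limma). *Tph1*, the tryptophan hydroxylase gene next to it, differed by −0.17 (adjusted p = 0.47 from limma). Beyond *Saa2*, *Hps5*, which acts in the biogenesis of lysosome-related organelles, differed by 0.15 (adjusted p = 0.54 from limma) and *Gtf2h1*, a subunit of the transcription factor TFIIH, by 0.03 (adjusted p = 0.91 from limma). None of these 4 neighbours had an unadjusted p below 0.05 in limma, which 11.5% of all genes had, and none was called by SAM, which called 0.983% of all genes. Of the measured neighbours of *Fpr1* and *Fpr2*, *Has1*, a hyaluronan synthase gene, differed by −0.19 (adjusted p = 0.49 from limma), *Mir125a* by −0.08 and *Vmn2r94*, a vomeronasal receptor gene, by 0.10, beside *Fpr-rs4*.

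The 5 genes whose 4 values, centred on their mean, lay closest to those of *Saa3* were *Thbs1*, *Cxcl13*, *Serpinb2*, *Prg4* and *Vsig4*. Their Euclidean distances from *Saa3* were 1.27, 1.75, 1.77, 1.86 and 2.46 on the log2 scale, and Pearson's r over the 4 arrays ran from 0.992 to 1.000. With 2 arrays per genotype this order follows the size of the difference between genotypes. *Thbs1*, encoding the matrix glycoprotein thrombospondin 1, was nearest, at 6.69 and 6.34 in WT AM and at 10.00 and 10.05 in TREM2-/- AM. *Serpinb2*, an inhibitor of plasminogen activators, was at 4.32 and 4.49 against 7.32 and 7.29, so that its WT values lay at the lower quartile of the arrays. *Cxcl13*, a chemokine for B cells, *Prg4*, encoding lubricin, and *Vsig4*, a complement receptor of macrophages, differed by 2.96, 2.86 and 2.24, the latter 2 from WT values of 3.93 to 4.28 that were dim. None of the 5 lies on chromosome 7.

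**Figure D3:**
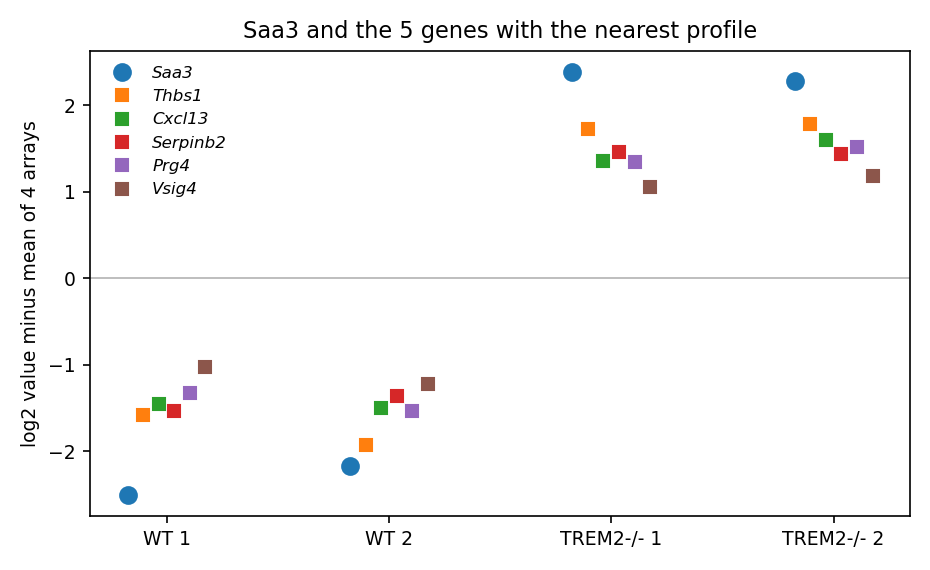
Log2 value of *Saa3* and of the 5 nearest genes on each array, minus the mean of that gene over the 4 arrays. All 6 genes are below 0 on the WT arrays and above 0 on the TREM2-/- arrays, and *Saa3* has the widest gap, 4.67.

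The measured relatives of *Fpr1* and *Fpr2* are genes known mainly from the vomeronasal organ, and they gave little signal in AM of either genotype. *Fpr-rs3* was at 5.18 and 5.31 in WT AM and at 5.61 and 5.47 in TREM2-/- AM, with no overlap of the arrays and a log2 difference of 0.30 (standard error 0.09, adjusted p = 0.30 from limma). *Fpr-rs4*, *Fpr-rs6* and *Fpr-rs7* were dim on all 4 arrays, between 2.80 and 3.78. Their log2 differences were 0.02 (limma adjusted p = 0.95), −0.09 (limma adjusted p = 0.74) and 0.13 (limma adjusted p = 0.59). None of the 4 passed in limma, where 0.431% of all genes were called higher and 0.135% lower in TREM2-/- AM. The unadjusted p was below 0.05 for 1 of them, *Fpr-rs3*, against 11.5% of all genes, and SAM called none, against 0.983%. The genes that follow are pathway and marker lists, described by how many of their measured genes passed limma over all 19946 genes, beside these 4 shares and the median log2 difference of all genes, −0.02.

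Other receptors reported for SAA were mostly well expressed and none of the 7 passed the test. *Tlr2*, a Toll-like receptor for bacterial lipoproteins, was at 12.13 and 12.15 in WT AM and at 12.32 and 12.32 in TREM2-/- AM (log2 difference 0.19, adjusted p = 0.40 from limma). *Cd36*, a scavenger receptor, was at 12.59 and 12.60 against 12.34 and 12.36 (difference −0.25, adjusted p = 0.28 from limma). The arrays did not overlap for either, and both passed under an intensity trend with robust variance. That setting called 379 genes higher and 290 lower among all 19946. *Scarb1*, the HDL receptor SR-B1, differed by −0.19, *Tlr4*, the lipopolysaccharide receptor, by 0.17, *P2rx7*, an ATP-gated channel, by 0.08, and *Selenos*, a selenoprotein of the endoplasmic reticulum, by 0.14. The largest difference was 0.48 for *Ager*, the receptor for advanced glycation end products and also a marker of lung epithelium (adjusted p = 0.14 from limma). The median over these receptors was 0.14, 3 of 7 had an unadjusted p below 0.05 (11.5% of all genes), and SAM called none.

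Other agonists of formyl peptide receptors did not pass either, 0 of 5, with a median of 0.05. *Anxa1*, encoding annexin A1, an anti-inflammatory agonist of FPR2, was at 12.63 and 12.64 in WT AM and at 12.45 and 12.52 in TREM2-/- AM (log2 difference −0.15, adjusted p = 0.51 from limma), and it passed only under an intensity trend with robust variance. *Hebp1*, whose protein is a precursor of an agonist peptide, differed by 0.05 and *Camp*, the cathelicidin of neutrophils, by 0.19. No agonist had an unadjusted p below 0.05 in limma and SAM called none.

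Downstream of the receptors, 0 of 21 measured signalling genes passed and their median was 0.03. They were the G protein subunits, phospholipase C and phosphoinositide 3-kinase genes, the Rac GTPases and their exchange factors, the arrestins, a receptor kinase and the subunits of the phagocyte oxidase. Their differences ran from −0.07 to 0.16, none had an unadjusted p below 0.05 in limma, and SAM called none. *Gnai2*, a Gi alpha subunit to which formyl peptide receptors couple, was at 12.79 and 12.76 in WT AM and at 12.77 and 12.78 in TREM2-/- AM. *Cybb*, the catalytic subunit of the oxidase, was at 13.63 and 13.62 against 13.69 and 13.73 (log2 difference 0.09, adjusted p = 0.69 from limma).

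Cytokines, receptors and transcription factors that induce SAA genes were not called, 0 of 18, with a median of 0.05, although *Il1b* was called by SAM. *Il1b*, encoding interleukin-1 beta, was at 8.63 and 8.86 in WT AM and at 9.34 and 9.49 in TREM2-/- AM. The arrays did not overlap, and the log2 difference of 0.67 (standard error 0.11, adjusted p = 0.08 from limma) had the lowest p of this list. *Il6ra*, the interleukin-6 receptor, was at 9.59 and 9.46 against 9.86 and 9.88 (difference 0.35, adjusted p = 0.20 from limma). *Cebpd*, a C/EBP factor of the acute-phase response, was at 6.71 and 6.75 against 7.07 and 7.04 (difference 0.32, adjusted p = 0.17 from limma). *Il6* differed by 0.31 but was dim on all 4 arrays, from 3.37 to 3.79. *Tnf* was at 11.88 on both WT arrays and at 11.80 and 11.89 in TREM2-/- AM, a difference of −0.03. *Stat3* (0.05), *Cebpa* (−0.01), *Cebpb* (0.03) and *Rela* (−0.03), encoding the other main factors measured, gave differences near 0. *Il1b*, *Il6ra*, *Cebpd* and *Il6* were the 4 of 18 with an unadjusted p below 0.05, against 11.5% of all genes.

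Among 10 inhibitors of NF-kB and STAT3 signalling, none passed, the median was 0.04 and SAM called none. *Nfkbia*, encoding the NF-kB inhibitor IkB alpha, differed by 0.12 (adjusted p = 0.57 from limma) and *Tnfaip3*, encoding the deubiquitinase A20, by 0.08 (adjusted p = 0.72 from limma). *Socs3*, the feedback inhibitor of interleukin-6 signalling, was at 6.67 and 6.93 in WT AM and at 7.05 and 7.38 in TREM2-/- AM (log2 difference 0.41, adjusted p = 0.35 from limma), and it was the 1 gene of 10 with an unadjusted p below 0.05.

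Other acute-phase reactants did not pass the test, 0 of 23, and their median log2 difference was −0.02, as for all genes. *Hp*, encoding haptoglobin, was at 8.45 and 8.56 in WT AM and at 8.85 and 8.85 in TREM2-/- AM (difference 0.34, adjusted p = 0.18 from limma). *Lcn2*, encoding the iron-sequestering protein lipocalin 2, was at 6.47 and 6.36 against 6.75 and 6.85 (difference 0.38, adjusted p = 0.16 from limma). The metallothionein genes *Mt1* and *Mt2* differed by −0.12 and −0.24. Of the hepatic reactants, *Fgg*, *Hamp*, *Orm1*, *Orm2* and *Orm3* were dim on all 4 arrays, while *Crp* and *Fgb* lay between 4.67 and 5.07. In limma 4 of 23 had an unadjusted p below 0.05 (11.5% of all genes), and SAM called none. An intensity trend with robust variance called 2 higher and 1 lower, against 379 higher and 290 lower among all 19946 genes.

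**Figure D4:**
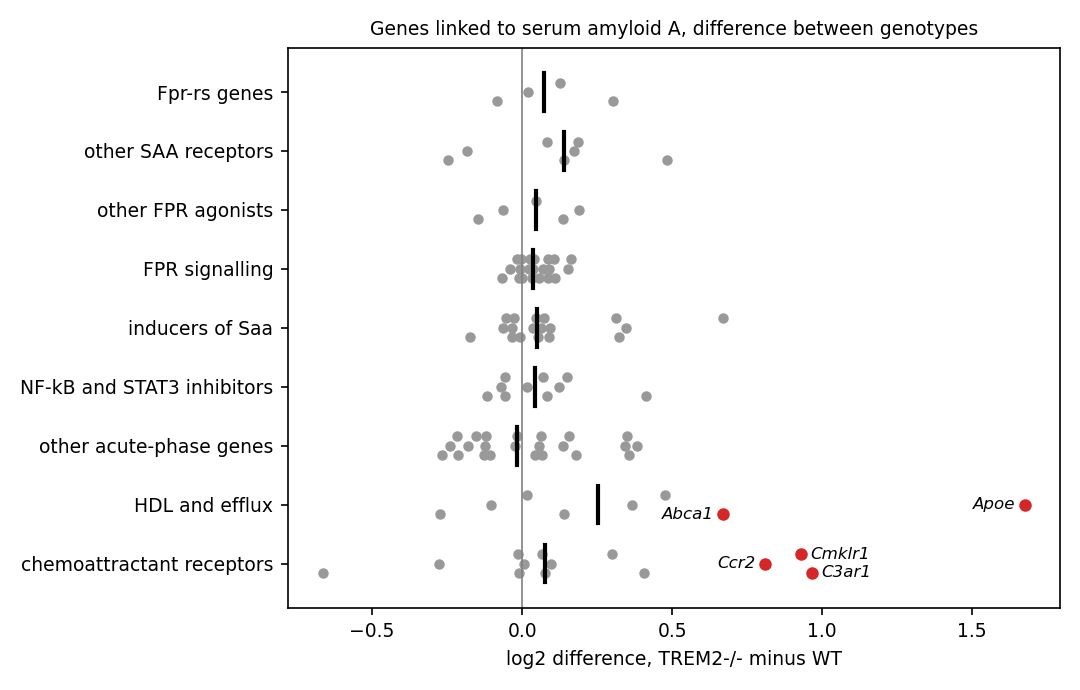
Log2 difference, TREM2-/- minus WT AM, of each measured gene of 9 lists linked to serum amyloid A and its receptors. Red marks the genes called by limma after adjustment, grey the rest, and the black bar the median of each list. The 5 genes that passed lie in the HDL and efflux list and in the chemoattractant receptor list, and all are higher in TREM2-/- AM.

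HDL and cholesterol efflux genes, chosen because SAA is carried on HDL, included 2 of 8 that rose and none that fell, with a median of 0.25. Over all genes limma called 0.431% higher and 0.135% lower. The unadjusted p was below 0.05 for 5 of 8, against 11.5% of all genes. *Apoe*, an apolipoprotein that macrophages secrete, rose from 9.39 and 9.41 in WT AM to 11.17 and 10.98 in TREM2-/- AM (log2 difference 1.67, standard error 0.09, adjusted p = 0.0015 from limma), and passed with any 1 array left out. *Abca1*, the transporter that loads cholesterol onto lipid-poor apolipoproteins, rose from 8.53 and 8.33 to 9.09 and 9.11 (difference 0.67, standard error 0.09, adjusted p = 0.049 from limma), but it missed the threshold in each of the 4 fits on 3 arrays (limma adjusted p = 0.077 to 0.28). *Apoa1*, the main apolipoprotein of HDL and a hepatic gene, was at 5.74 and 5.94 in WT AM and at 5.57 and 5.55 in TREM2-/- AM, a difference of −0.28 (adjusted p = 0.35 from limma). *Pltp* (0.37), *Apoc1* (0.48), *Abcg1* (0.14) and *Lcat* (−0.10) did not pass.

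Among 13 other G protein-coupled receptors for chemoattractants, 3 rose and none fell, with a median of 0.08, against 0.431% of all genes called higher and 0.135% lower. Of the 13, 6 had an unadjusted p below 0.05 in limma (11.5% of all genes). *Cmklr1*, a receptor for chemerin, rose from 6.25 and 6.18 in WT AM to 7.13 and 7.16 in TREM2-/- AM (log2 difference 0.93, standard error 0.07, adjusted p = 0.0083 from limma). *C3ar1*, the receptor for the complement fragment C3a, rose from 8.52 and 8.29 to 9.32 and 9.43 (difference 0.97, adjusted p = 0.02 from limma), and *Ccr2*, a chemokine receptor of monocytes, from 7.27 and 7.09 to 7.94 and 8.04 (difference 0.81, adjusted p = 0.027 from limma). *Cmklr1* and *C3ar1* passed in 1 of the 4 fits that left out an array and *Ccr2* in none (adjusted p up to 0.081, 0.15 and 0.20 from limma). *C5ar1*, the C5a receptor, was at 9.81 and 9.72 against 10.15 and 10.19 (difference 0.41, adjusted p = 0.12 from limma) and was called by SAM. *Ccr1*, another chemokine receptor, was at 8.88 and 8.69 in WT AM and at 7.99 and 8.25 in TREM2-/- AM (difference −0.66, adjusted p = 0.10 from limma).

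Markers of other cell types are given beside *Saa3*, since epithelium, monocytes and neutrophils can express SAA or its receptors. Of 18 markers of interstitial or monocyte-derived macrophages and monocytes, 10 rose and none fell, with a median of 0.73. Limma called 0.431% of all genes higher and 0.135% lower. In this list 12 of 18 had an unadjusted p below 0.05, against 11.5% of all genes. *Pf4*, a platelet and macrophage chemokine, rose by 1.98, *Tmem176b* by 1.26 and *H2-Eb1*, an MHC class II chain, by 1.20 on the log2 scale. *Apoe* and *Ccr2*, already counted in the HDL and chemoattractant receptor lists, are also among the 10 that rose. *H2-Aa* and *H2-Ab1*, also called higher, lie with *H2-Eb1* on chromosome 17, as does *Trem2*. An effect of that location was not tested. The summed linear signal of this list was 13650 and 14028 in WT AM and 22983 and 22312 in TREM2-/- AM, and *Cd163* and *Plac8* were dim on all 4 arrays. The calls of *Ccr2*, *Cx3cr1*, *Cd74* and *Cd14* in this list were lost whichever array was left out. Of 18 lung epithelial markers, *Cldn18*, a tight junction gene, rose by 1.23 and *Scgb1a1*, the club cell secretoglobin, by 0.91, while the median of the list was 0.08. None passed as lower. In limma 9 of 18 had an unadjusted p below 0.05, against 11.5% of all genes, and 12 of 18 differences lay above 0. An intensity trend with robust variance called 6 higher and 1 lower, against 379 higher and 290 lower among all 19946 genes. The keratin genes *Krt18*, *Krt8* and *Krt19* differed by 0.95, 0.83 and 0.55. *Cdh1*, encoding E-cadherin, was at 8.59 and 8.40 in WT AM and at 7.97 and 8.12 in TREM2-/- AM (log2 difference −0.45, adjusted p = 0.16 from limma). It was the 1 marker called lower under the trend. *Epcam* (−0.09) and the surfactant genes *Sftpa1* (−0.08) and *Sftpb* (−0.10) differed little, *Scgb3a1* and *Cldn3* differed by −0.19 and −0.18, and *Sftpc* differed by 0.44 (adjusted p = 0.20 from limma). The summed signal was 1839 and 1783 in WT AM and 2236 and 2212 in TREM2-/- AM, with *Scgb3a2* and *Lamp3* dim on all 4 arrays. *Scgb1a1* did not pass with any 1 array left out and *Cldn18* passed in 3 of 4 such fits, while SAM also called the keratin genes *Krt8*, *Krt18* and *Krt19*. The part of these cells in the *Saa3* signal was not tested.

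Of 18 neutrophil markers none passed, 6 had an unadjusted p below 0.05, against 11.5% of all genes, and SAM called 1, *Csf3r* (log2 difference 0.64, adjusted p = 0.07 from limma). The summed signal of the list was 1553 and 1482 in WT AM and 1746 and 1762 in TREM2-/- AM, and *Ly6g*, *Ngp*, *Retnlg* and *Stfa2* were dim on all 4 arrays. Of 8 hepatocyte markers none passed, 1 had an unadjusted p below 0.05, and it was *Trf*, encoding transferrin, which SAM called (difference 0.34, adjusted p = 0.16 from limma) and which was bright in AM at 12.21 to 12.56. The summed signal of that list was 4928 and 4889 in WT AM and 6149.9 and 6181 in TREM2-/- AM. That sum was almost all *Trf*, the 1 marker of 8 with a difference above 0. *Cps1*, the next brightest of the list, had a mean of 5.24 over the 4 arrays. *Ttr* and *Cyp3a11* were dim on all 4 arrays, and *Alb* and *Ahsg* on 3 of them. Of 5 eosinophil markers 1 rose, against 0.431% of all genes called higher. It was *Alox15*, a lipoxygenase also made by macrophages (difference 1.52), while *Prg2* (−0.01) and *Epx* (−0.01) differed little. None of 7 lymphocyte markers passed, 1 had an unadjusted p below 0.05 and SAM called none. Of 15 AM markers 14 did not pass, among them *Lpl* (−0.08), *Ctsk* (−0.06), *Siglecf* (−0.21) and *Pparg* (−0.02), and *Car4* rose by 0.90, a call kept in 1 of the 4 fits that left out an array. The largest fall among AM markers was that of *Krt79* (difference −0.35, adjusted p = 0.21 from limma), while *Cidec* and *Marco* differed by 0.21 and 0.18. In limma 5 of 15 had an unadjusted p below 0.05, against 11.5% of all genes. An intensity trend with robust variance called 3 of the 15 higher and 2 lower, against 379 higher and 290 lower among all 19946 genes. No AM marker was dim on all 4 arrays, and the summed signal of the list was 61728 and 61410 in WT AM and 61128 and 59762 in TREM2-/- AM.

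**Figure D5:**
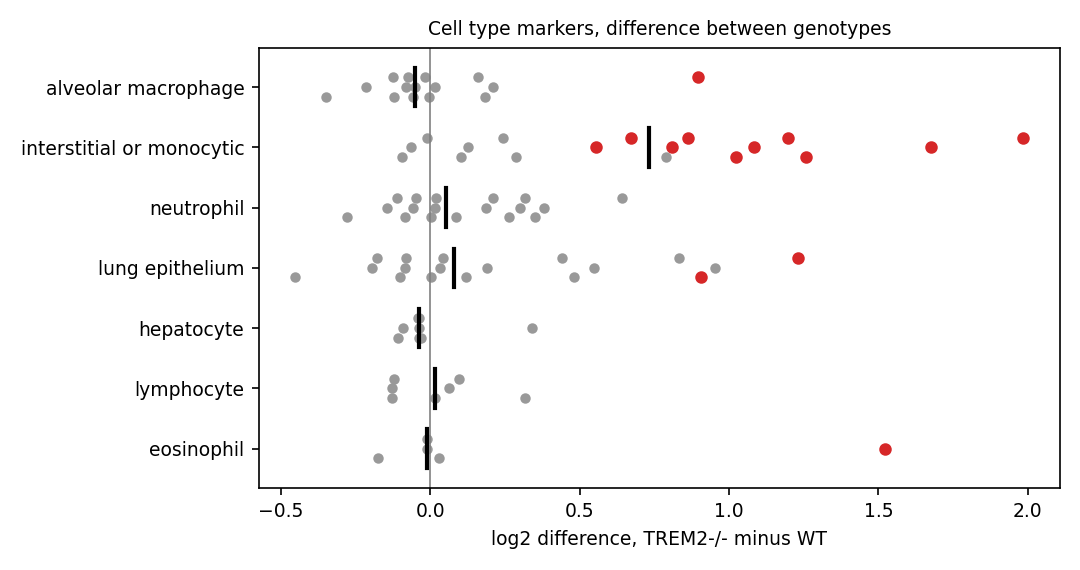
Log2 difference, TREM2-/- minus WT AM, of each measured marker of 7 cell types. Red marks the genes called by limma after adjustment, grey the rest, and the black bar the median of each list. Interstitial or monocytic markers have a median of 0.73 with 10 of 18 called, and alveolar macrophage markers one of −0.05 with 1 of 15 called.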

How the data were processed

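Total RNA of AM was hybridized to Affymetrix mouse Gene ST arrays, 2 per genotype. The authors normalized the arrays together by RMA and deposited log2 values, 1 per probe set and array. RMA (version not given) and mm9 come from the processing notes of the submitters. Scanner intensities were not analysed here.

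Of 35557 rows, 21797 carried 1 symbol, 1613 several and 12147 were unlisted. Through gene identifiers 21706 matched RefSeq (GRCm38.p6), used for names, gene order and promoter sequences. The genotype difference was fitted in R 4.3.3 with limma 3.58.1 (lmFit, then eBayes), two-sided and with no replicate term, with Benjamini-Hochberg adjustment over 19946 genes at 0.05. Significance analysis of microarrays (SAM), named in the study's methods at a false-discovery rate of 5%, was written out with all 6 assignments of the arrays. Both were tested on simulated data. An exact permutation test of 1 gene cannot give a p below 0.333 with 2 arrays against 2. Promoter windows were aligned with Biopython 1.88.

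Members and lists were chosen with earlier results of these data known. The rule named the members, *Trem2*, in each list up to 4 called genes of the largest difference and, where fewer than 2 were called, up to 2 of the brightest, the 2 measured genes on each side of the SAA cluster and of the *Fpr1*-*Fpr2* pair, and the 5 genes nearest to *Saa3*. Other names were chosen after their values were seen. Of 118 genes in the 9 pathway lists 109 were measured, and of 95 in the 7 marker lists 89. Other settings tried were the replicate block, SAM, an intensity trend together with robust variance, quantile normalization, median centring, a filter at a mean of 6, the mean of probe sets, all rows as probe sets and each array left out. A t-test was also tried, which the study's methods name for comparisons between groups in general and not for the arrays.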

Additional observations from a re-analysis of the deposited data

How the results depend on the processing

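The log2 difference of *Saa3* stayed between 4.50 and 4.84 with 1 array left out, and that of *Saa1* between −0.41 and −0.26, whereas those of *Saa2* (−0.12 to 0.32) and *Saa4* (−0.10 to 0.20) changed sign. Quantile normalization moved each of the 4 by less than the spread between arrays. The mean of probe sets and the replicate block could not change these differences, since each gene has 1 probe set and the block is balanced over genotypes. Median centring shifts the difference of every gene by the same small amount, so it is no check of single genes either. Limma called 86 genes higher and 27 lower among all tested. SAM gave 177 higher and 19 lower, and all rows as probe sets gave 21 and 2. An intensity trend with robust variance gave 379 and 290, and a filter at a mean of 6 gave 207 and 150. A t-test gave 782 and 1052 unadjusted and 0 and 0 after Benjamini-Hochberg. With 1 array left out the counts ran from 22 to 43 higher and from 4 to 7 lower. Among the 109 pathway genes, 5 were higher and 0 lower in limma. The counts were 15 and 4 with the trend, 15 and 1 with the filter, 19 and 3 in the unadjusted t-test, 0 higher after Benjamini-Hochberg and with all rows as probe sets, and 1 to 3 higher and 0 lower with 1 array left out. The replicate block gave 98 higher and 31 lower genes over all, and 6 and 0 among the pathway genes. Deviations of same-numbered arrays correlated at −0.05, so the numbers were not taken to pair the arrays. The cause of these changes was not tested. Dim probe sets limit what *Saa1*, *Saa2*, *Saa4* and most *Fpr-rs* genes can show.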
